A study of Mus musculus with 8 samples.

Results

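The 78 genes with Mrps and Mrpl symbols, all but Mrps36 encoding proteins of the mitochondrial ribosome, were followed in muscle stem cells (MuSCs) of aged mice. Members were all protein-coding genes of the count table whose symbol starts with Mrps or Mrpl and a number, which gave 29 Mrps and 49 Mrpl genes among the 55487 genes listed. The 5 further ribosomal proteins with other names are described apart. MuSCs were sorted from muscle and grown for 3 days in growth medium with either vehicle or nicotinamide (NAM) together with pyridoxine (PN). There were 4 vehicle and 4 NAM/PN libraries, made from 4 pools of 2 mice each (8 old mice in all), and each pool gave 1 library of each kind. The vehicle group received 1% DMSO for 72 hours. The treated group received NAM/PN at 1 mM over the same time. The labels give neither the amount of each compound nor whether the NAM/PN cultures held DMSO, so a part of DMSO in the contrast cannot be told apart. All cells were therefore aged, cultured and activated, and no young or uncultured cells were compared. A library stands for a pair of mice, and differences between mice of a pair are not seen.

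Mitochondria carry their own ribosomes, which translate the few membrane proteins encoded in mitochondrial DNA, all of them subunits of the respiratory chain and the ATP synthase. The ribosomal RNAs, mt-Rnr1 in the small subunit and mt-Rnr2 in the large subunit, are made inside the organelle, whereas every ribosomal protein is encoded in the nucleus and imported. Some of these proteins belong to families shared with bacterial ribosomes and others are found only in mitochondria. NAM and PN are forms of vitamins B3 and B6, and NAM is a precursor of NAD+.

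None of the Mrps and Mrpl genes passed the test for a difference between NAM/PN and vehicle, whereas mt-Rnr2, the RNA on which the large subunit is built, was lower with NAM/PN (adjusted p = 0.0112 in edgeR). That call was lost without vehicle replicate 4 (adjusted p = 0.0767), without pool 1 (0.116) and without pool 2 (0.0591). The 76 members with enough counts to be tested had a median log2 fold change of 0.09. Of these, 52 lay above 0. Without NAM/PN replicate 4 the median was -0.02 and 37 of 76 members lay above 0, and without vehicle replicate 3 the median was 0.04 and 44 lay above 0. Other left-out libraries raised it, to 0.16 without vehicle replicate 1 (54 above 0) and 0.18 without NAM/PN replicate 3 (55 above 0). Mrpl35 and Mrpl51, both of the large subunit, were the only members whose 4 NAM/PN libraries all lay on one side of the 4 vehicle libraries. In both the NAM/PN values were the lower ones, a pattern that 4.42% of all genes tested showed.

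The libraries held 6472484 to 10163101 counts. Values are CPM, counts scaled by library size and TMM factor, and the detection floor of 3 counts lay at 0.295 to 0.464 CPM. The libraries read the 3′ ends of transcripts, so CPM was not divided by transcript length. NAM/PN replicate 4 stood apart from the rest: it had the most counts but the fewest genes detected (12483), and only 2.56% of its counts lay on mitochondrial genes. Vehicle replicate 3 had 18.7% of its counts on CT010467.1, a gene annotated as ribosomal RNA, against 5.22% to 11.6% in the others. Of the 9 tested markers of muscle stem cells, 0 were called and 1 lay above 0, and the list summed to 3194 ± 248 CPM in vehicle and 2738 ± 265 CPM in NAM/PN (SD, n = 4), lower with NAM/PN in each of the 4 pools. Of the 16 markers of myogenic differentiation, all had fitted values below 0 and 10 were called lower with NAM/PN, and their summed level went from 3133 ± 842 to 793 ± 262 CPM (SD, n = 4). The summed levels of the endothelial list (3.46 to 21.2 CPM in vehicle, 9.85 to 29.6 CPM in NAM/PN) and of the hematopoietic list (0.98 to 7.58 and 3.50 to 7.14 CPM) were low, and Ptprc, Pdgfra, Dpt, Lum and Myh11 had no counts. The lists of fibro-adipogenic and mural markers summed to 295 ± 24.5 and 437 ± 141 CPM in vehicle and to 98.1 ± 22.7 and 117 ± 27.5 CPM in NAM/PN, with Col3a1, Gsn and Acta2 called lower. In vehicle, most of the first sum was Col3a1 (155 CPM) and Gsn (134 CPM), and most of the second was Acta2 (368 CPM). Dcn, Rgs5 and Pdgfrb had vehicle means of 0.06, 0.91 and 0.84 CPM. Smoc2, Notch3 and Cspg4 were not called, at log2 fold changes of 0.15, -0.50 and -0.53. These sums therefore do not establish that such cells were present. The part of these lists in the results below was not tested, and in bulk libraries fewer cells of a type cannot be told apart from less RNA per cell.

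The promoters of the members were read from RefSeq (GRCm38.p6), where 69 of the 78 genes had a window from 250 bases before to 50 bases after the start. A core of the ETS family motif, CCGGAAG, the motif of factors such as GABPA, was present on either strand in the windows of 26 of the 69 genes (37.7%), against 21.7% of the 8858 tested genes with a window and 9.93% of all 27025 genes with one. Of the 65 cytosolic ribosomal protein genes with a window, 26 held it (40%), a share close to that of the members. The core of the YY1 motif, AGATGGC, was held by 12 (17.4%), against 8.77% of tested and 12.3% of cytosolic ribosomal protein genes, and that of NRF1, CGCATGCG, by 7 (10.1%), against 4.75% and 4.62%. The GC box GGGCGG was held by 34 genes (49.3%), against 71.8% and 63.1%, and the E-box CACGTG by 5 (7.25%), against 12.3% and 9.23%. The windows of the members had a median GC content of 58.7%, and those of all tested genes 61.3%. These are matches of letters, not sites of binding. The stretches printed here lie within the 200 bases before a RefSeq start and touch no exon annotated in GENCODE. GENCODE transcripts can start further upstream, as for Mrpl35, whose stretch lies inside the GENCODE span of the gene. The stretches are those of the member with the highest level (Mrpl12), of 2 members that hold an ETS core (Mrpl34 and Mrpl22, the latter with an NRF1 core as well), of the member with the largest fitted rise (Mrps25), of Mrpl35 and of Mrps11. For Mrps11 the stretch has 29 bases, and its GENCODE span overlaps that of Mrpl46 on the other strand. Capitals mark the motif cores, and no core of the 5 was found in the stretches without capitals. In the wider windows, a YY1 core of Mrpl35 and a YY1 core and a GC box of Mrps11 lay outside the stretches shown.
Mrpl12: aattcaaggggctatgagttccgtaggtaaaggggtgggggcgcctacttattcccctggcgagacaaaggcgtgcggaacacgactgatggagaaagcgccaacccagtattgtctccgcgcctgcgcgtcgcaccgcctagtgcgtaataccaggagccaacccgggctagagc
Mrpl34: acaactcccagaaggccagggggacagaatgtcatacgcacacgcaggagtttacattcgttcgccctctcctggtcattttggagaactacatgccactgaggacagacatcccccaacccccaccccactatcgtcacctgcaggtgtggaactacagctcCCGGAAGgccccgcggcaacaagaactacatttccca
Mrpl22: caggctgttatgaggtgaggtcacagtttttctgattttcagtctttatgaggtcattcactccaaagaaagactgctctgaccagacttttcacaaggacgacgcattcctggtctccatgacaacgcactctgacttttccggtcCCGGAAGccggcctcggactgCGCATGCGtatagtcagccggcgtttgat
Mrps25: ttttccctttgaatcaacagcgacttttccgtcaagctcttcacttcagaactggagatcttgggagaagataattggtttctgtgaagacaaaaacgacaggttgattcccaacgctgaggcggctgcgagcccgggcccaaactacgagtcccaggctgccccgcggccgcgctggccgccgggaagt
Mrpl35: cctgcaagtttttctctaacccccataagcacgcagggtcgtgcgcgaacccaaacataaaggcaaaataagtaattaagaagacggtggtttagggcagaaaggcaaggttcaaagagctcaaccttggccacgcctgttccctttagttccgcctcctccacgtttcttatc
Mrps11: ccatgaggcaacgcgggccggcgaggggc
In order, these lie at chr11:120484437-120484612 (plus strand), chr8:71464726-71464925 (plus strand), chr11:58171464-58171660 (plus strand), chr6:92184034-92184223 (minus strand), chr6:71823811-71823984 (minus strand), chr7:78783090-78783118 (plus strand). For Mrpl51 no stretch is shown.

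Levels of the members spanned a wide range. Mrpl12, the factor-binding stalk protein of the large subunit, was highest, with vehicle levels of 295, 293, 308 and 306 CPM. Mrps6, a small subunit protein of a bacterial family, followed with 276, 248, 164 and 291 CPM in vehicle, and Mrpl34, a small protein of the large subunit, with 243, 284, 279 and 222 CPM. The vehicle levels of Mrpl12 lay above every vehicle level of the other members, whereas those of Mrps6 and Mrpl34 overlapped. Mrpl17 and Mrpl20, also of the large subunit, came next at means of 189 and 184 CPM over the 8 libraries and overlapped as well.

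Over all 78 genes the median level was 70.7 CPM, against 24.2 CPM for all genes tested. There were 18 members above 100 CPM, 51 between 20 and 100 CPM and 9 below 20 CPM, and the 8 highest took 27.4% of the summed level. Among Mrps genes, Mrps5 and Mrps15, relatives of bacterial proteins, and Mrps12, which lines the decoding site, followed Mrps6 at 136, 129 and 128 CPM. The lowest tested members were Mrpl23 at 2.08 CPM, Mrps18b at 2.72 CPM and Mrps33 at 6.59 CPM. Mrpl53 and Mrps36 did not pass the filter on low counts, at means of 0.46 and 0.58 CPM. Mrps36 is named as a ribosomal protein but is a component of the 2-oxoglutarate dehydrogenase complex.

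**Figure D1:**
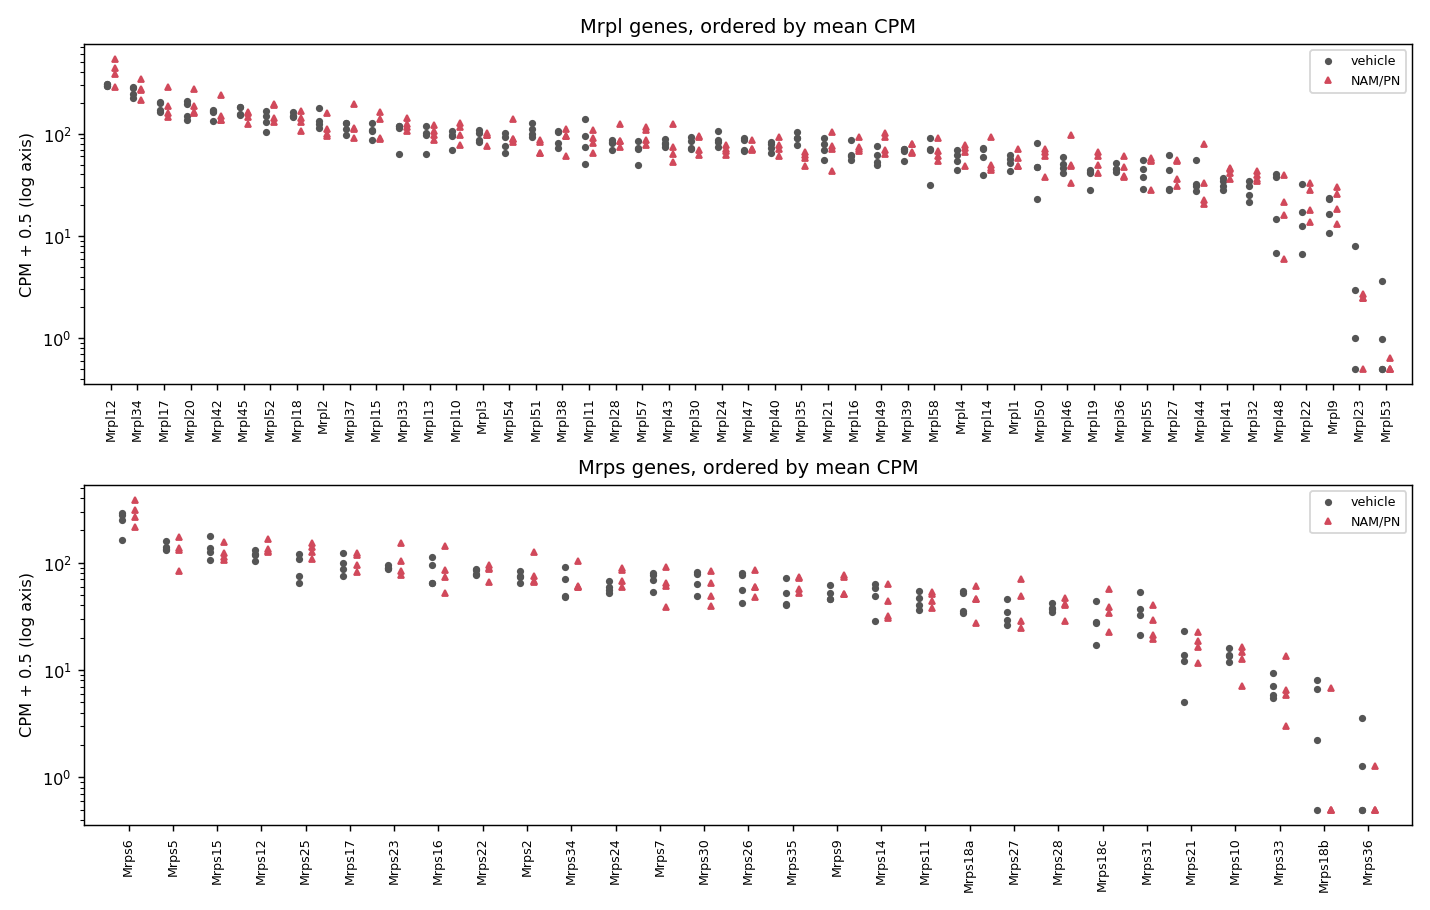
Each column is a member, ordered by mean level, with its CPM plus 0.5 in the 4 vehicle (circles) and 4 NAM/PN (triangles) libraries on a log axis, Mrpl genes above and Mrps genes below. The highest levels are those of Mrpl12, Mrps6 and Mrpl34, and Mrpl23, Mrps18b, Mrpl53 and Mrps36 lie near the floor.

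Some members have a processed copy elsewhere that also held counts. Mrpl23 had 146 counts over the 8 libraries, and its processed pseudogene Mrpl23-ps1 had 1075. Mrps36 had 38 counts, and its pseudogenes Mrps36-ps1 and Mrps36-ps2 had 93 and 57. Mrpl48 had 1419 counts, and Mrpl48-ps had 453. Whether reads were split between these genes and their copies was not tested, and the values of Mrpl23, Mrpl48 and Mrps36 are to be read with that limit. Exons of 33 members overlap those of another gene, 8 of them on the same strand, among them Mrps6, Mrps24, Mrps34, Mrpl33, Mrps18c and Mrpl51.

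Whether NAM/PN changed the expression of the set was first asked of its summed level. The vehicle libraries summed to 6433, 6050, 5663 and 6237 CPM, and the NAM/PN libraries to 6208, 6087, 5833 and 8021 CPM. The first 3 NAM/PN values lay within the vehicle range and NAM/PN replicate 4 lay above it. The means were 6096 ± 328 and 6537 ± 1002 CPM (SD, n = 4), a ratio of 1.07, and the ratio was 0.991 without NAM/PN replicate 4. As a share of all counts in a library, the members took 0.516% to 0.639% in vehicle, 0.592% to 0.618% in NAM/PN replicates 1 to 3 and 0.845% in NAM/PN replicate 4, whose exact binomial 95% interval was 0.839% to 0.851% and covers counting error only.

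Both subunits gave sums of the same kind, with NAM/PN replicate 4 the highest library. The 26 small subunit genes summed to 1780 ± 77.6 CPM in vehicle and 1953 ± 351 CPM in NAM/PN. The 51 large subunit genes, with which Mrps18a and Mrps30 are counted because their proteins sit there, summed to 4314 ± 265 and 4584 ± 661 CPM. The ratio of large to small was 2.47, 2.54, 2.30 and 2.38 in vehicle and 2.22, 2.39, 2.56 and 2.28 in NAM/PN. The groups overlapped, with means of 2.42 ± 0.10 and 2.36 ± 0.15 (SD, n = 4).

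Cytosolic ribosomal protein genes showed the same library standing apart. Their 85 genes summed to 30172 to 31341 CPM in vehicle, to 31225 to 31786 CPM in NAM/PN replicates 1 to 3 and to 39644 CPM in NAM/PN replicate 4. Set against them, the summed level of the mitochondrial ribosomal protein genes was 21.3%, 19.5%, 18.1% and 20.7% in vehicle and 19.8%, 19.2%, 18.7% and 20.2% in NAM/PN, so that NAM/PN replicate 4 fell inside the vehicle range on this scale. Set against the 85 nuclear-encoded respiratory chain genes, it was 27.9%, 27.9%, 31.7% and 28.5% in vehicle and 32.1%, 29.97%, 29.1% and 35.9% in NAM/PN, and NAM/PN replicate 4 was again the highest.

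**Figure D2:**
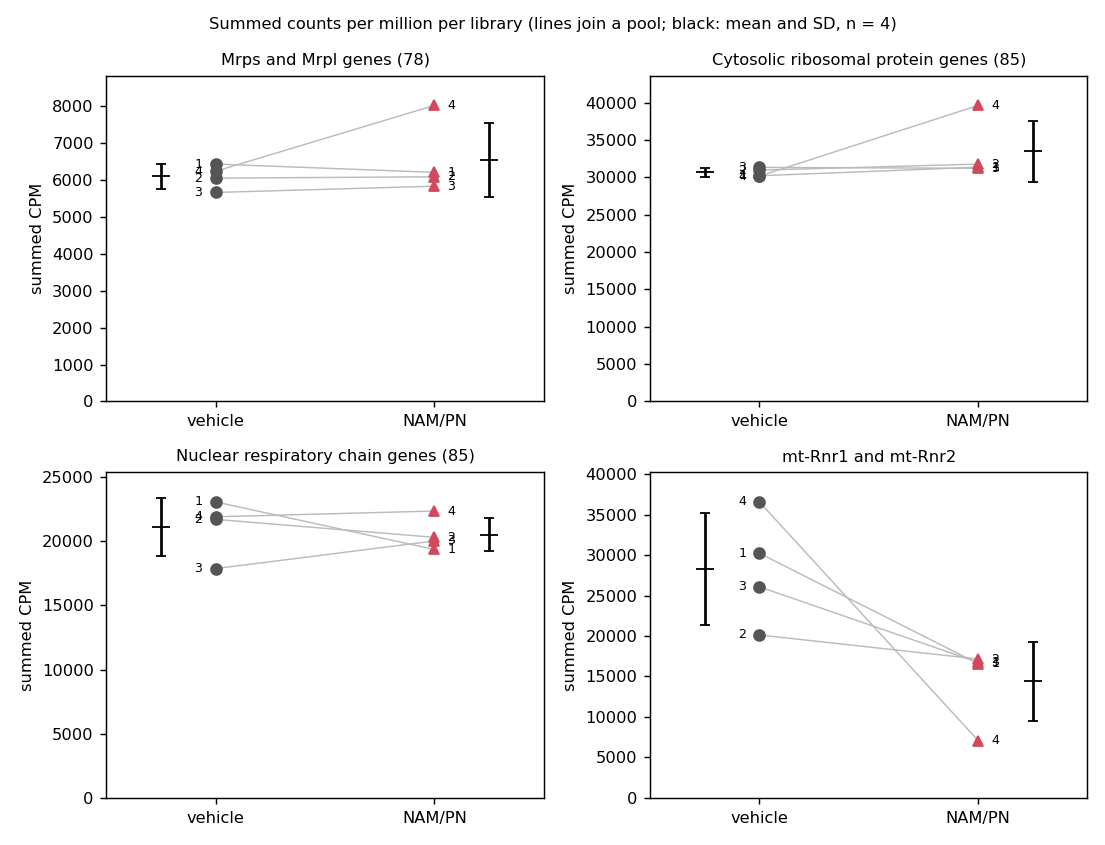
Summed CPM per library of 4 groups of genes, with vehicle as circles, NAM/PN as triangles, a line for each pool (numbered) and the mean with SD (n = 4) in black. NAM/PN replicate 4 is highest for the mitochondrial (8021 CPM) and cytosolic (39644 CPM) ribosomal protein genes, and the 4 NAM/PN libraries lie below all vehicle libraries for mt-Rnr1 and mt-Rnr2 together.

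Gene by gene, the quasi-likelihood test of edgeR, adjusted by Benjamini-Hochberg over 12060 genes, called 154 genes (1.28%), of which 34 (0.282%) were higher and 120 (0.995%) lower with NAM/PN. Of the 76 members, 0 were called in either direction, the smallest adjusted p being 0.178 by edgeR and 0.111 by DESeq2. An unadjusted p under 0.05 was reached by 5 members in edgeR, where 9.28% of all genes tested reached it, and by 5 in DESeq2, where 9.9% of the 12036 genes with a p did. In edgeR these were Mrpl35, Mrpl51, Mrpl12, Mrps25 and Mrpl57. Most fitted differences were small: 71 of the 76 members had a log2 fold change within 0.5 of 0, as did 8108 of all 12060 genes. Within 0.25 of 0 lay 52 members and 5035 of all genes. For 62 of the 76, the 95% interval lay within 1 on the log2 scale, which held for 40.4% of all genes tested, so that a doubling or a halving lay outside the interval of these members. The members had higher levels than all genes tested (medians of 70.7 and 24.2 CPM) and smaller standard errors (medians of 0.23 and 0.38). The part of level in these shares was not tested.

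The share of members above 0 was 68.4% (52 of 76), against 49.8% of all genes tested, whose median was -0.002. In the small subunit 18 of 26 lay above 0, with a median of 0.10, and in the large subunit 34 of 50, with a median of 0.09. Members of bacterial families had medians of 0.08 in the small and 0.10 in the large subunit, and those found only in mitochondria 0.13 and 0.09. By pool, the NAM/PN library was the higher one for 38, 39, 44 and 59 of 76 members in pools 1 to 4, with median log2 ratios of 0.00, 0.00, 0.11 and 0.32. Over all genes tested, the corresponding medians were -0.01, -0.00, 0.00 and -0.05. NAM/PN replicate 4 held the highest of the 8 values for 36 members, and vehicle replicate 3, with 22, held the lowest value most often. The corresponding counts over all genes tested were not taken, so nothing particular to the members can be read from these.

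**Figure D3:**
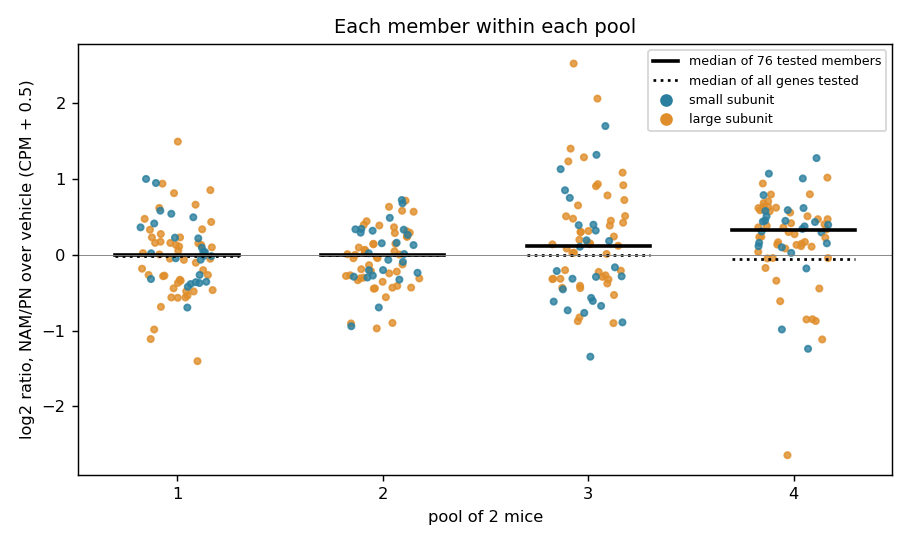
Log2 ratio of NAM/PN over vehicle (CPM plus 0.5) within each pool for each tested member, coloured by subunit; solid bars are the medians of the 76 tested members and dotted bars those of all genes tested (Mrpl23 and Mrps18b, near the floor, are left out of the points). The solid bar lies at 0.00, 0.00, 0.11 and 0.32 in pools 1 to 4.

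**Figure D4:**
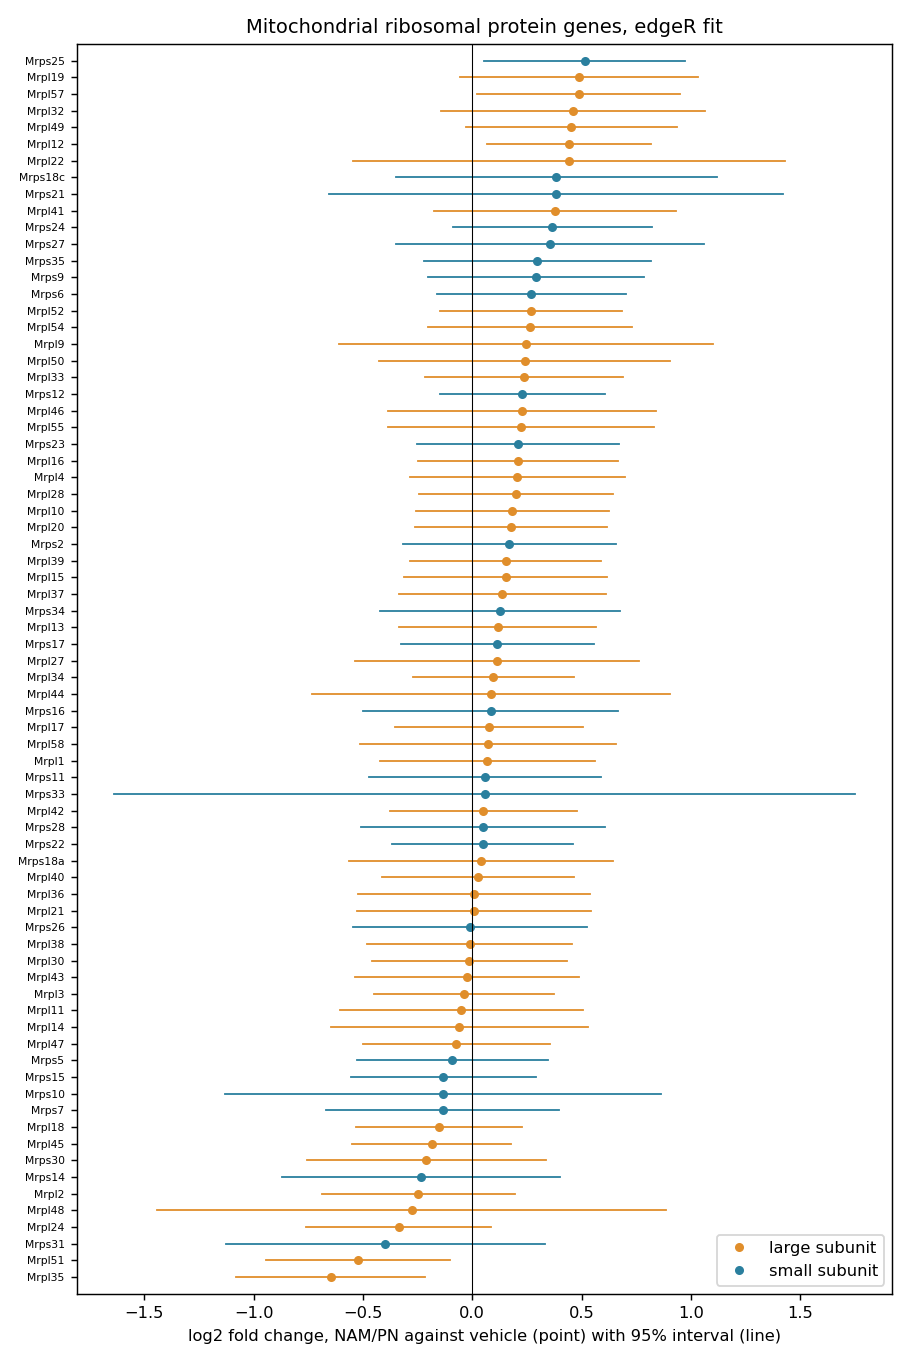
Fitted log2 fold change of each tested member (point) with its 95% interval (line), ordered by size and coloured by subunit; Mrpl23 and Mrps18b, with standard errors above 1, are left out. The points run from -0.65 (Mrpl35) to 0.51 (Mrps25) without separation of the subunits.

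Of the members that were lower with NAM/PN, Mrpl35, a large subunit protein of a bacterial family (chromosome 6, 71812997 to 71826969, minus strand), had vehicle levels of 90.6, 90.6, 105 and 77.3 CPM and NAM/PN levels of 65.5, 48.3, 56.8 and 60.9 CPM. Every NAM/PN library lay below every vehicle library. The log2 fold change was -0.65 (SE 0.21), with an adjusted p of 0.178 in edgeR. Mrpl51, a large subunit protein found only in mitochondria (chromosome 6, 125191801 to 125196269, plus strand), had 127, 110, 93.0 and 99.5 CPM in vehicle and 87.2, 82.6, 64.3 and 64.9 CPM in NAM/PN. These groups did not overlap either, and the log2 fold change was -0.52 (SE 0.20), with an adjusted p of 0.346 in edgeR. Over all genes tested, 4.42% had groups that did not overlap with NAM/PN lower and 2.79% with NAM/PN higher, against 2 and 0 of the 76 members.

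Mrpl24, which lies at the exit of the large subunit's tunnel, was the third member lower with NAM/PN in all 4 pools, a pattern that 10.6% of all genes showed. Its levels were 82.8, 74.4, 86.0 and 106 CPM in vehicle and 60.8, 67.7, 70.2 and 77.7 CPM in NAM/PN, so the groups overlapped, and its log2 fold change was -0.34 (SE 0.20). Mrps31, Mrpl48 and Mrpl2 had values of -0.40 (SE 0.35), -0.28 (SE 0.56) and -0.25 (SE 0.21) on the same scale, none past the threshold. Mrps18b, a small subunit relative of bacterial S18, and Mrpl23 had fitted values of -1.31 and -0.77, with standard errors of 1.88 and 1.74. Mrps18b was at 0 in 1 vehicle and 3 NAM/PN libraries. Its fitted value was -4.32 with the pool as replicate block, -0.35 without pool 2 and -8.05 without NAM/PN replicate 3, where every remaining NAM/PN library is at 0, so no size can be read from it.

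On the other side, Mrps25, a small subunit protein found only in mitochondria (chromosome 6, 92169525 to 92184033, minus strand), had the highest fitted value. It was measured at 108, 64.6, 74.0 and 120 CPM in vehicle and 139, 107, 125 and 152 CPM in NAM/PN. The NAM/PN library was the higher one in each of the 4 pools, but the groups overlapped. The log2 fold change was 0.51 (SE 0.22), with an adjusted p of 0.449 in edgeR. Mrpl57, a large subunit protein found only in mitochondria, had 84.9, 71.1, 48.9 and 72.5 CPM in vehicle and 107, 86.9, 77.2 and 117 CPM in NAM/PN, a log2 fold change of 0.49 (SE 0.22) with an adjusted p of 0.496. It too was higher in all 4 pools, as were Mrpl32, Mrpl4, Mrpl41, Mrpl49 and Mrps24, which made 7 members, against 8.49% of all genes.

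Mrpl12 (chromosome 11, 120484613 to 120489065, plus strand) had closely spaced vehicle values and widely spaced NAM/PN values. Its vehicle libraries lay within 293 to 308 CPM, with a mean of 300.3 ± 7.67 CPM. The NAM/PN libraries were at 285, 435, 380 and 533 CPM, a mean of 408 ± 104 CPM (SD, n = 4), with replicate 1 below all vehicle values and the other 3 above them. The log2 fold change was 0.44 (SE 0.18), with an adjusted p of 0.394 in edgeR. Mrpl32, a large subunit protein that is cut to its mature form after import, had 21.2, 33.9, 30.01 and 24.6 CPM in vehicle and 33.9, 35.4, 42.9 and 38.7 CPM in NAM/PN. Only the lowest NAM/PN library of Mrpl32 lay within the vehicle range, and its log2 fold change of 0.46 (SE 0.29) had an adjusted p of 0.743. Mrpl19, Mrpl49, Mrpl22 and Mrps18c had values of 0.49, 0.45, 0.44 and 0.38, with adjusted p between 0.593 and 0.898 in edgeR.

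**Figure D5:**
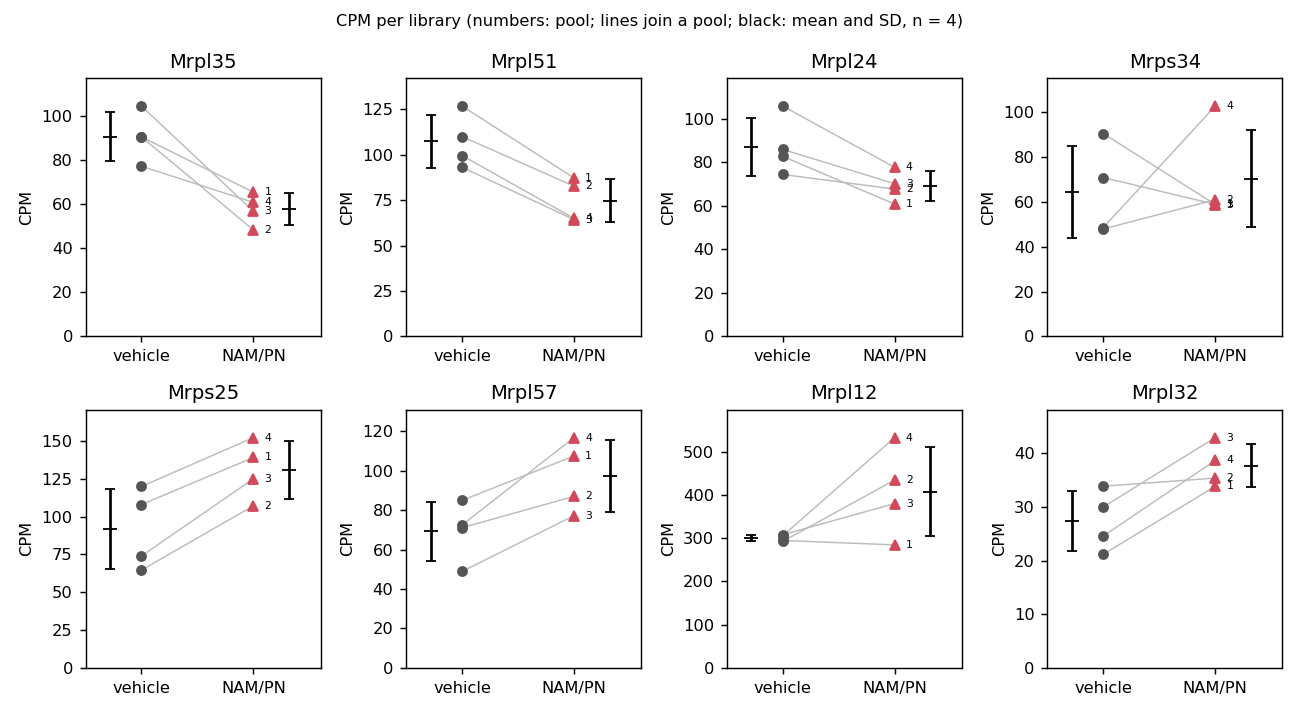
CPM of 8 members in each library, with vehicle as circles, NAM/PN as triangles, a line for each pool (numbered) and the mean with SD (n = 4) in black. Mrpl35 and Mrpl51 show NAM/PN libraries below all vehicle libraries, and Mrps34 shows NAM/PN replicate 4 at 103 CPM above the other 3 NAM/PN libraries.

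None of the members with particular roles passed the test. Mrps12, at the decoding site, had a log2 fold change of 0.23 (SE 0.18). Mrpl45, which lies by the tunnel exit and holds the ribosome to the inner membrane, had -0.19 (SE 0.17). Mrpl58, a peptidyl-tRNA hydrolase built into the large subunit, had 0.07 (SE 0.28), and Mrpl44, with a fold related to ribonuclease III, had 0.09 (SE 0.39). The 3 relatives of bacterial S18 gave 0.04 for Mrps18a, -1.31 (SE 1.88) for Mrps18b and 0.38 for Mrps18c, and Mrps30, a large subunit protein despite its name, gave -0.21. Mrpl33 and Mrpl36, which are small proteins of the large subunit, had 0.24 and 0.01.

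Mrps34, a small subunit protein, shows how 1 library set a value. Its vehicle levels were 70.8, 47.9, 90.4 and 48.5 CPM and its NAM/PN levels 58.8, 60.9, 58.8 and 103 CPM. The first 3 NAM/PN libraries lay close together, with replicate 4 far above them, and the log2 fold change was 0.13 (SE 0.26) with all libraries and -0.11 without that one. The abundant large subunit members Mrpl17, Mrpl20 and Mrpl34 went from 0.08, 0.18 and 0.10 to -0.17, -0.03 and -0.03 in the same way.

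The 2 ribosomal RNAs of the same ribosome had lower values with NAM/PN. mt-Rnr2 was at 24019, 15866, 21708 and 27798 CPM in vehicle and 12368, 12683, 12316 and 5433 CPM in NAM/PN. Every NAM/PN library was below every vehicle library, and the log2 fold change was -1.06 (SE 0.21), with an adjusted p of 0.0112 in edgeR and 0.0125 in DESeq2. Without NAM/PN replicate 4 it was -0.84 (adjusted p = 0.00287). In the fits where the call was lost, it was -0.95 without vehicle replicate 4 (adjusted p = 0.0767), -1.11 without pool 1 (0.116) and -1.29 without pool 2 (0.0591). mt-Rnr1, the RNA of the small subunit, was at 6205, 4259, 4370 and 8765 CPM in vehicle and 4221, 4476, 4430 and 1654 CPM in NAM/PN. Its groups overlapped and its log2 fold change of -0.68 (SE 0.26) had an adjusted p of 0.336. Its first 3 NAM/PN libraries lay at the level of vehicle replicates 2 and 3, and the log2 fold change was -0.43 without NAM/PN replicate 4, -0.43 without vehicle replicate 4 and -0.18 without pool 4. Both RNAs were counted from poly(A)-primed 3′ libraries, so the values are of the molecules caught by that priming and not of all ribosomal RNA.

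Expressed against the summed mt-Rnr1 and mt-Rnr2 level, the protein genes amounted to 21.3%, 30.1%, 21.7% and 17.1% in vehicle and to 37.4%, 35.5%, 34.8% and 113% in NAM/PN. All NAM/PN libraries lay above all vehicle libraries on this scale. The groups were already apart in the divisor, with RNA sums of at most 17159 CPM in NAM/PN and at least 20125 CPM in vehicle. The sums of the protein genes overlapped, so the ratio adds no separate result about them. The 7 tested mitochondrial mRNAs, the templates of this ribosome, all had fitted log2 fold changes below 0, their median being -0.39, and 0 were called. Each was higher with NAM/PN in 2 pools and lower in 2, and the ratio of their summed level, over all 13 mRNAs listed, was 0.801 with all pools and 0.981 without pool 4. Of the 13, mt-Nd3, mt-Nd4l, mt-Co2, mt-Co3, mt-Atp6 and mt-Atp8 were not tested. The sum equals that of the 7 tested mRNAs to the digits given, so the untested templates are not represented in it. The lowest unadjusted p among them was that of mt-Co1, with -0.53 (SE 0.25) and an adjusted p of 0.534 in edgeR.

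Other genes of mitochondrial translation gave no call in edgeR. Of the 5 further ribosomal proteins with other names (Dap3, Ptcd3, Chchd1, Aurkaip1 and Gadd45gip1), 3 lay above 0, with a median of 0.09. Chchd1 had 0.21 (SE 0.23), and its value of 305 CPM in NAM/PN replicate 4 stood above the other 7 libraries, which lay between 129 and 184 CPM. Of the 29 genes for assembly of the ribosome, 21 lay above 0, with a median of 0.17, and Malsu1, which keeps the large subunit from joining too early, had the smallest p, at 0.61 (SE 0.26, adjusted p = 0.459). Of the 15 tested translation factors 7 lay above 0 (median -0.01), with Mtrf1l, a release factor, at 1.00 (SE 0.60). Of the 17 mitochondrial tRNA synthetases 7 lay above 0 (median -0.18), with the arginyl enzyme Rars2 at -0.87 (SE 0.41). Of the 7 genes of mitochondrial transcription 5 lay above 0 (median 0.31), with Tfam, which packages mitochondrial DNA and starts its transcription, at 0.28 (SE 0.24).

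Of the 9 tested nuclear regulators linked to mitochondrial genes, 6 lay above 0, with a median of 0.04, and 0 were called. Gabpa, of the ETS family, Nrf1 and Yy1, whose motif cores were counted in the members' promoters, had log2 fold changes of -0.17 (SE 0.33), 0.01 (SE 0.24) and 0.04 (SE 0.19). Esrra, a nuclear receptor, had the smallest p at -0.79 (SE 0.37), with an adjusted p of 0.521 in edgeR. Among the 79 tested cytosolic ribosomal protein genes 55 lay above 0 (median 0.14, 0 called), and among the 81 tested nuclear respiratory chain genes 28 did (median -0.06, 0 called by edgeR; DESeq2 called Cox8b, a muscle isoform of a subunit, at an adjusted p of 8.75e-05).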

How the data were processed

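RNA of 8 libraries was sequenced with a QuantSeq 3′ kit. The authors deposited raw counts per gene without normalization; according to the supplement and the labels, reads were aligned to GRCm38 with RNASTAR and counted with HTSeq 2.16.2. Gene types and positions came from GENCODE vM21, in which 55227 of the identifiers were found. The members and lists were chosen with earlier results of these data known.

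Genes with at least 10 counts (total 15) by filterByExpr were kept (12060 genes). edgeR 4.0.16 (R 4.3.3; TMM, glmQLFit, glmQLFTest, no block) compared NAM/PN with vehicle, with Benjamini-Hochberg adjustment over all genes and a threshold of 0.05. DESeq2 1.42.0 was an alternative. The test was first run on simulated data. Cytosolic ribosomal and respiratory chain genes were found by symbol. Lists are described by counts and medians, with no test. Within-pool ratios used CPM + 0.5.

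Libraries with the same number come from the same pool of mice, so the numbers pair the samples; deviations from the group means correlated at -0.008, 0.014, -0.037 and 0.030 within pools 1 to 4. No 2 libraries of one group agreed within sampling noise.

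Named members were those with the 8 highest and 8 lowest fold changes, the 4 highest levels in Mrps and in Mrpl and the 3 lowest, those not tested, those with groups that did not overlap and 13 with particular roles; in other lists, the called genes and the one with the smallest p. Chchd1, Mrpl4, Mrpl41, Mrps24, Mrps11, Mrpl46, Gabpa, Nrf1 and Yy1 were named in addition, after their values were seen. Depth is the total count per library. The binomial interval of the share of counts on the members covers counting error only. The intervals of log2 fold changes were built from the standard errors of the edgeR fit and are not limited to counting error.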

Additional observations from a re-analysis of the deposited data

Results flagged for a closer look

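In each group of 4 libraries, the gap of the highest or lowest value to its neighbour was set against the range of the group, and a share above Dixon's critical value at 95% was taken as a library far from the others. A rate of 1 in 20 would give 4.9 of the 98 groups examined, and 13 were found. That rate does not hold here, because zeros in all other libraries of a group fix the share at its highest. Several of the groups also share genes and libraries, so no excess over chance can be read from these counts. Of the 13, NAM/PN replicate 4 was the distant library in 7. It was high for the summed large subunit genes (5573 CPM, the other 3 at 4192 to 4291 CPM), for the cytosolic ribosomal protein genes (39644 CPM), for the share of counts on the members (0.845%) and for Mrps34 (103 CPM). It was low for mt-Rnr1 (1654 CPM), mt-Rnr2 (5433 CPM) and their sum (7088 CPM, the other 3 at 16589 to 17159 CPM). In the vehicle group, replicate 3 was low for Mrpl33, at 63.5 CPM against 114 to 118 CPM. The remaining 5 concerned members near the floor: Mrpl53 at 3.09 CPM in vehicle replicate 3 and at 0.139 CPM in NAM/PN replicate 2, and Mrpl23 at 0, Mrps18b at 6.24 CPM and Mrps36 at 0.761 CPM in NAM/PN replicate 3.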

How the results depend on the processing

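No member was called by any fit run, in either direction, including DESeq2, the pool as replicate block, other scalings, no filter on low counts, an adjusted p threshold of 0.10 and the fits that left out a library or a pool. The median log2 fold change of the members was 0.08 with the pool as replicate block, where 50 of 76 members lay above 0, and 0.08, 0.09, 0.15 and 0.07 with upper quartile scaling, DESeq2, library totals alone and no filter. Left-out libraries and pools moved it from -0.02 to 0.18; it changed sign without NAM/PN replicate 4 (-0.017), without pool 4 (-0.014) and, in a fit added after seeing the data, without pool 4 and with the pool as replicate block (-0.016). The count of all genes called was 289 in DESeq2, 366 without the filter and 244 at the 0.10 threshold, and 42 to 177 when a library or pool was left out (80 without vehicle replicate 2, 87 without vehicle replicate 4 and 92 without NAM/PN replicate 1). With the pool as replicate block 156 genes were called, mt-Rnr2 among them (adjusted p = 0.0203); the block changed no other call given here. Without the filter mt-Rnr1 was called as well (-0.69, adjusted p = 0.00943).

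The values that follow were taken for the members named by rule. They were not taken for Mrpl4, Mrpl41, Mrps24, Mrps11 and Mrpl46, which were named in addition, nor for members not named. Among those named by rule, some with fitted values near 0 changed sign, none past the threshold: with the pool as replicate block Mrpl36 (-0.016), Mrpl44 (-0.086) and Mrps33 (-0.15), with upper quartile scaling Mrpl36 (-0.0044) and without the filter Mrpl36 (-0.0062). Over the left-out libraries and pools, values crossed 0 in Mrpl17 (-0.22 to 0.20), Mrpl20 (-0.14 to 0.37), Mrpl23 (-1.41 to 1.54), Mrpl34 (-0.098 to 0.24), Mrpl36 (-0.17 to 0.15), Mrpl44 (-0.59 to 0.56), Mrpl48 (-1.13 to 0.53), Mrpl58 (-0.16 to 0.32), Mrps15 (-0.29 to 0.084), Mrps18a (-0.15 to 0.34), Mrps33 (-0.60 to 0.35), Mrps34 (-0.23 to 0.41) and Mrps5 (-0.28 to 0.073). Others kept their sign but moved widely, among them Mrpl22 (0.06 to 1.08), Mrps31 (-0.85 to -0.03), Mrpl2 (-0.52 to -0.02), Mrpl33 (0.06 to 0.33) and Mrps18b (-8.05 to -0.35). So did Mrps18c (0.10 to 0.66), Mrps30 (-0.47 to -0.06), Mrps6 (0.11 to 0.39), Mrpl12 (0.27 to 0.58) and Mrpl19 (0.25 to 0.67). The cause was not tested. Depth sets the floor of detection at 3 counts per library, and Mrpl53 and Mrps36 lay near it.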

Other observations

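Mrps11 and Mrpl46 overlap on opposite strands and encode proteins of different subunits. Mrps11 was at 46.7, 54.5, 40.1 and 35.5 CPM in vehicle and 37.3, 43.3, 52.8 and 50.7 CPM in NAM/PN. Mrpl46 was at 58.3, 40.4, 45.2 and 49.6 CPM in vehicle and 48.4, 32.7, 49.2 and 95.8 CPM in NAM/PN. Their levels overlapped in both groups, and the fitted log2 fold changes were 0.06 (SE 0.25) and 0.23 (SE 0.29), with adjusted p of 0.986 and 0.930 in edgeR. The positive value of Mrpl46 rests on NAM/PN replicate 4, at 95.8 CPM. Its other NAM/PN libraries lay at 32.7 to 49.2 CPM, and its vehicle libraries at 40.4 to 58.3 CPM.

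Cox8b was at 4.03, 5.09, 4.45 and 6.09 CPM in vehicle and had no counts in the 4 NAM/PN libraries. Its adjusted p was 0.0736 in edgeR and 8.75e-05 in DESeq2, and it was named after its values were seen. Rpl17 was the cytosolic ribosomal protein gene with the smallest p, at 26.5, 24.3, 30.5 and 38.6 CPM in vehicle and 41.5, 58.1, 43.2 and 85.1 CPM in NAM/PN, a log2 fold change of 0.93 (SE 0.29) with an adjusted p of 0.166 in edgeR.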
